A study of Mus musculus with 3 samples.

Results

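Synaptic vesicle release is described here through 48 genes for the proteins that dock, prime and fuse transmitter vesicles, measured in dorsal cortex taken from mouse pups on postnatal day 4. The genes were chosen by name: every non-control probe whose RefSeq accession, or whose gene name in the authors' deposited table, belongs to one of the 48 was taken. This gave 76 of 55681 non-control probes, which stood for 47 of 23300 named genes on the array. Probes without a gene name are counted as genes under their own identifiers below, which gives 35468 in all and 23232 tested, 16788 of them named. Syt5 was matched by no probe. A probe had to be well above background in at least 1 dye on at least 2 of the 3 arrays to be tested, and 71 member probes of 45 genes were. Syt2, a fast calcium sensor, and Cplx4, a complexin, were not well above background in either dye on any array and have no test. Each of the 3 two-colour Agilent arrays carried RNA from the dorsal cortex of a wild-type pup in Cy3 and of a Brpf1-deficient pup in Cy5, per the labels, with no treatment of either. The labels do not give the Brpf1 allele, the means of its removal, the strain, the sex or the litter of the pups. Per the labels, the dye order was the same on all 3 arrays, and none had the dyes swapped. Each ratio therefore combines genotype with any preference of the probe for 1 dye, which would recur on every array. How much such a preference adds to the ratios below was not tested. The 3 pairs are numbered. P-values rest on these 3 pairs only, with each gene's variance between pairs moderated in limma towards that of all genes.

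At a nerve terminal, synaptic vesicles fuse with the plasma membrane when SNARE proteins of the vesicle (synaptobrevins, the Vamp genes) zip together with SNARE proteins of the target membrane (syntaxins and the Snap25 family). Synaptotagmins and Doc2 proteins bind calcium or phospholipid and couple fusion to calcium entry, complexins clamp and promote the SNARE complex, and Rab3 GTPases, RIM and Munc13 proteins tether and prime vesicles at the active zone, the release site held together by Bassoon and Piccolo. In cortex of the first postnatal week, synapses are still forming, and many of these genes are rising with neuronal maturation.

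The sign of every ratio is that of Cy5 over Cy3 on the log2 scale. Brpf1 itself had ratios of 0.62, 0.73 and 0.96 on arrays 1, 2 and 3, so it was brighter in the dye labelled Brpf1-deficient (limma adjusted p = 0.00444), which goes against that label unless its single probe lies outside the deleted part, which is not known here. All 60 member probes that the authors' deposited table lists carry the opposite sign there, and the genotype behind each direction is not settled. On each array and in each dye, 57.9% to 61.0% of the non-control spots exceeded background by the scanner software's criterion. The cortical gene Emx1 set array 1 apart from the others, with ratios of 0.65, -2.72 and -2.65 (its Cy5 spot on array 3 was not well above background, so that value is a bound). The labels do not say whether the 3 pairs carry the same alleles, and counts without array 1 are given for each gene group below. Of the marker lists, striatal genes were brighter in Cy5 (6 of 8, list median 0.66, and 1.06, 0.26 and 0.68 on the 3 arrays), as were subplate genes (4 of 5, Cplx3 among them) and the globin genes Hba-a1 and Hba-a2. Pan-neuronal markers split, with Nefl (0.68), Nefm (0.76) and Rbfox3 (0.35) brighter in Cy5 and Dcx (-0.50), Elavl3 (-0.28) and Map2 (-0.25) brighter in Cy3. Of 7 cortical projection neuron markers, Bcl11b (0.39) and Tbr1 (0.33) were brighter in Cy5 and Neurod6 (-0.38) in Cy3. None of them but Emx1 was above 0 on array 1 and below 0 on arrays 2 and 3. Of 7 interneuron markers, Sst (0.41) and Slc32a1 (0.33) were brighter in Cy5, and Dlx1 (-0.56) and Lhx6 (-0.39) in Cy3. Of 5 astrocyte markers 2 were brighter in Cy3, and of 7 microglia markers 2 were brighter in Cy5. Of 6 oligodendrocyte markers none was called (1 at an unadjusted p under 0.05, against 8551 of all 23232 genes). The part of any of these cell types in the results below was not tested, and fewer cells of a type cannot be told apart from less RNA per cell.

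Release genes differed little between the dyes. Of the 45 tested, 7 were brighter in Cy3 and 2 in Cy5 at a limma adjusted p under 0.05. These were Syt4, Snap25, Syt9, Snap23, Syt13, Unc13b and Syt16 in Cy3, and Vamp1 and Sv2c in Cy5. The 9 calls are 20% of the members, against 17.1% of all 23232 genes tested, so the share called lies near the background. By direction the members had 15.6% in Cy3 and 4.44% in Cy5, against 9.17% and 7.98% of all genes. With the reported setting the largest member difference was 1.39-fold, and none reached 1.5-fold. The median log2 ratio was 0.01 over the members and -0.01 over all genes tested, with 24 members above 0 and 21 below. The 95% interval of a member's log2 ratio reached a median of 0.18 to either side, and 3 arrays limit the precision to this. These counts depended on the scaling and on the arrays used. With median centring in place of loess, 9 members had a call towards Cy5 and 0 towards Cy3. At an unadjusted p under 0.05 it gave 21 of 45 members and 9060 of all 23232 genes. This scaling called 23.1% of all genes. With the scanner software's processed signals, no member and 4.77% of all genes were called in limma. At an unadjusted p under 0.05 there were 11 of 45 members and 7697 of all 23232 genes. With the reported setting these were 15 and 8551. Without array 3 only Snap25 and Syt4 were called, and 8.18% of all genes. Without array 1, 4 members had a call towards Cy3 and 2 towards Cy5, and 13.4% of all genes were called.

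**Figure D1:**
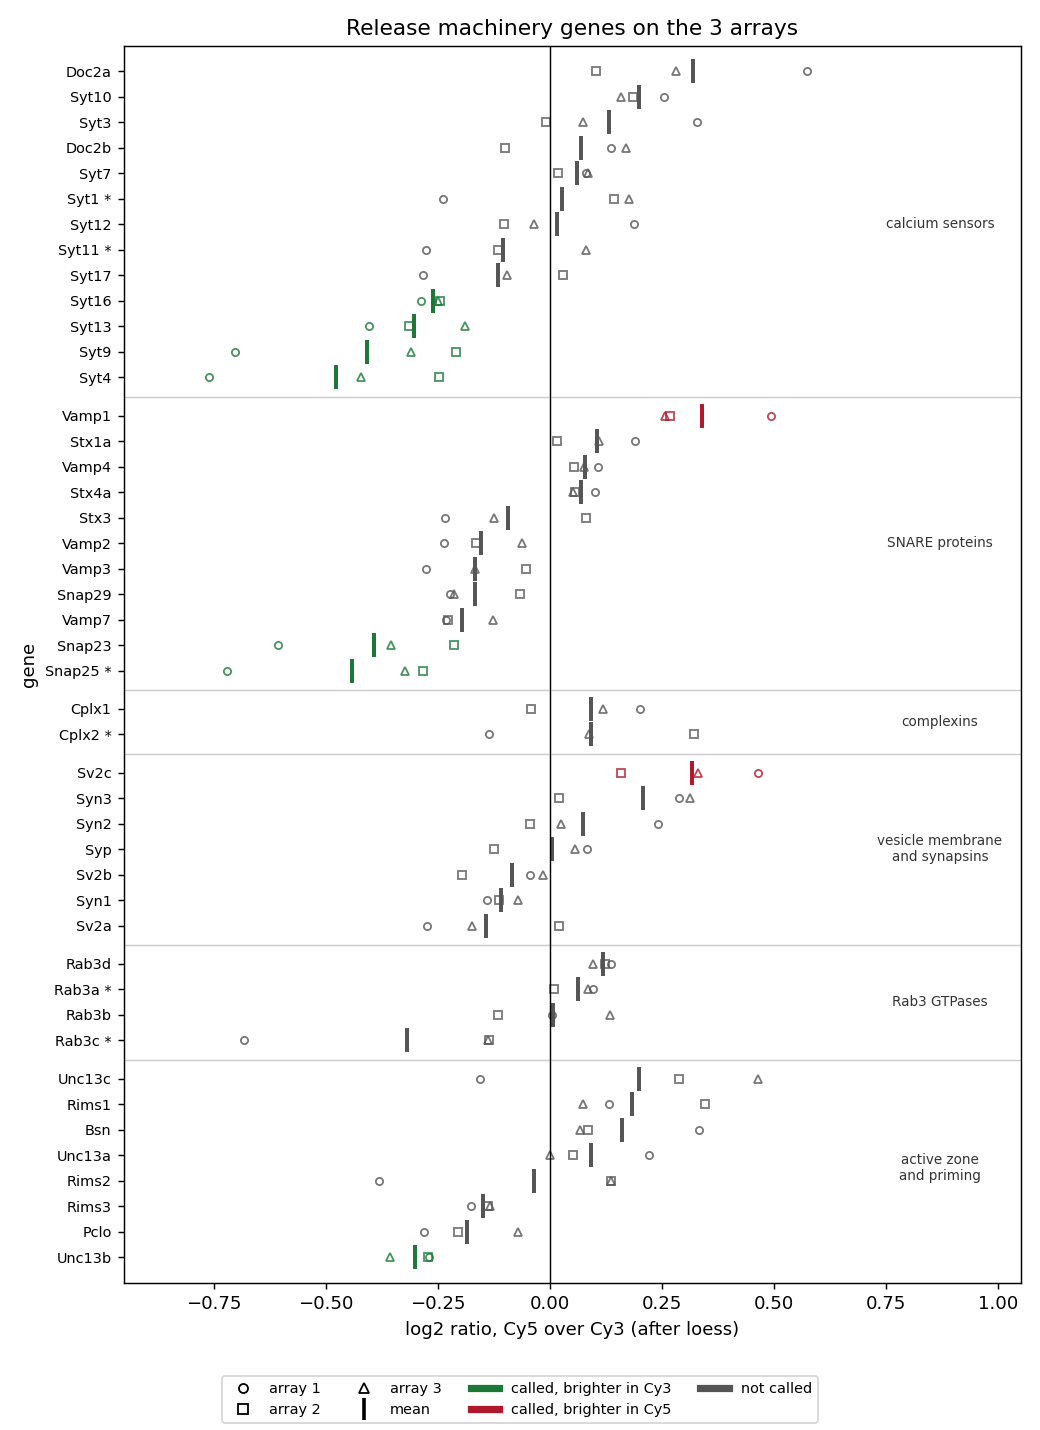
Log2 ratio of Cy5 over Cy3 after loess (horizontal axis) for the 45 tested genes, by role; open symbols are the 3 arrays, bars their mean, colour the limma call, and an asterisk marks a mean log2 intensity over 15. Most means lie within 0.2 of 0 (33 of 45). Array 1 is farthest from 0 in 8 of the 9 called genes, and in 67.0% of all 3983 called genes. With median centring no member is called brighter in Cy3.

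The start-site regions of the called genes are shown first, because these are the members that differed between the dyes. RefSeq windows on GRCm38.p6 were at hand for 33 of the 48 members and for 6 of the 9 called genes, 4 brighter in Cy3 (Snap23, Syt9, Syt16, Unc13b) and 2 brighter in Cy5 (Vamp1, Sv2c). Each sequence is the 250 bases before the start site, 5′ to 3′ on the gene's strand, with capitals marking the GC box GGGCGG or its reverse complement.
Snap23: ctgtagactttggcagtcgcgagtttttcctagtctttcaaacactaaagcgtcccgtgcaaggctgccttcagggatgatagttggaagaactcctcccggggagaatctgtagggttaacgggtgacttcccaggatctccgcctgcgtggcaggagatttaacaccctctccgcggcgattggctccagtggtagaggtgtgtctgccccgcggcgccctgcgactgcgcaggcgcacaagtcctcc
Syt9: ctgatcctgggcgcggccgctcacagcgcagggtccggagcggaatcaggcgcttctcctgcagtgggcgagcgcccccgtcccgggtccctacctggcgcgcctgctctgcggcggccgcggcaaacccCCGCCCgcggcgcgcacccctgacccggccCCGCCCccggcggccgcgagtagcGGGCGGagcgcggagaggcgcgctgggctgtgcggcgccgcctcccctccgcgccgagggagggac
Syt16: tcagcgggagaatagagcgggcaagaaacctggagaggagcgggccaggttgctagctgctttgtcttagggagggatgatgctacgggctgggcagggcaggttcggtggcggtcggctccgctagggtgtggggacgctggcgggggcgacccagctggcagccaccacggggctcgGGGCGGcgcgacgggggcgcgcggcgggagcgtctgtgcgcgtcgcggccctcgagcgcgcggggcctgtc
Unc13b: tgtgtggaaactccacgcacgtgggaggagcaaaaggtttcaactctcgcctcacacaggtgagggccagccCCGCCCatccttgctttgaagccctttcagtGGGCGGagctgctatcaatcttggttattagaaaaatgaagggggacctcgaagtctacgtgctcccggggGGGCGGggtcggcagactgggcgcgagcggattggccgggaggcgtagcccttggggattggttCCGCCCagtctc
Vamp1: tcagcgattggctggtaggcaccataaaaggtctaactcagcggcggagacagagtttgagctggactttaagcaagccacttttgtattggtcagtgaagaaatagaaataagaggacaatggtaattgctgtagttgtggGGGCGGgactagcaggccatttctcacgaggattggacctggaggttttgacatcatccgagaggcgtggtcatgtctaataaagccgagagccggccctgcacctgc
Sv2c: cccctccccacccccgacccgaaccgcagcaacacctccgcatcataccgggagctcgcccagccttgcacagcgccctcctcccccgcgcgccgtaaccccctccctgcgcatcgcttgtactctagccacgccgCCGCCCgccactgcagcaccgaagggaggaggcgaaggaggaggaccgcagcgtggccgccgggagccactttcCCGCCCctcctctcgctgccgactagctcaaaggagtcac
They lie at chr2:120567421-120567670, chr7:107370540-107370789, chr12:73997527-73997776, chr4:43058703-43058952 and chr6:125215331-125215580 on the plus strand, and Sv2c at chr13:96132578-96132827 on the minus strand. Unc13b holds 4 GC boxes, Syt9 3, Sv2c 2, Syt16 and Vamp1 1 each and Snap23 none, so members brighter in Cy3 and in Cy5 both include windows with this motif. A GC box on either strand was found for 25 of the 33 members (75.8%) and for 35.4% of 27025 genes with such a window. The members' windows were also richer in G and C, with a median of 60.8% against 52.4% over all windows, and the GC box is itself made of these letters. The left part TTCAGCACC of the element read by the repressor REST, and the cyclic AMP response element TGACGTCA, were each found on either strand for Syn1 alone among the 33, against 0.348% and 1.77% of all genes, and in none of the 6 printed windows. TATAAA was found for 3 of 33 members (Rab3b, Stx3, Sv2b) and for 14.3% of all genes.

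Of the synaptotagmin and Doc2 genes, grouped as calcium sensors although not all of them bind calcium, 13 were tested. They held 4 of the 7 genes brighter in Cy3 (30.8%, against 9.17% of all genes) and none of those brighter in Cy5. Among the 4 are Syt13 and Syt16, which do not depend on calcium. Without array 1 only Syt4 of the 4 was called, and with median centring none of them. Syt4, a synaptotagmin that does not bind calcium through its first C2 domain and sits on secretory and dense-core vesicles, had log2 intensities of 14.78, 14.64 and 14.76 in Cy3 and 14.02, 14.39 and 14.34 in Cy5 on arrays 1, 2 and 3. All 3 Cy3 values lay above all Cy5 values, as for 20.1% of all genes, and the gap was widest on array 1. The log2 ratio was -0.48 ± 0.26 (SD, n = 3 arrays), 1.39-fold brighter in Cy3 with a limma adjusted p of 0.0277, and -0.33 without array 1 (adjusted p = 0.0377). Syt9, a fast calcium sensor of limbic and striatal neurons, had 11.47, 11.27 and 11.34 in Cy3 and 10.76, 11.06 and 11.03 in Cy5. The dyes again did not overlap, and array 1 again differed most. Its ratio was -0.41 ± 0.26 (adjusted p = 0.0397), and the call was lost without array 1 (-0.26, adjusted p = 0.0532) and without array 3 (-0.46, adjusted p = 0.0586).

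Syt13, a synaptotagmin without calcium binding, had log2 intensities of 14.18, 14.13 and 14.07 in Cy3 and 13.77, 13.82 and 13.88 in Cy5. Syt16, another calcium-independent relative, had 14.40, 14.46 and 14.44 in Cy3 and 14.11, 14.22 and 14.19 in Cy5. Neither overlapped between the dyes, which was also so for 36.1% of all genes. The ratios of Syt16 were close to each other (-0.29, -0.25 and -0.25 on arrays 1, 2 and 3), while those of Syt13 spread more (-0.40, -0.31 and -0.19). Their ratios were -0.30 ± 0.11 (adjusted p = 0.0359) and -0.26 ± 0.02 (adjusted p = 0.0403), SD over 3 arrays in limma. Both calls were lost whichever array was left out, with adjusted p from 0.0605 to 0.0891 for Syt13 and from 0.0531 to 0.152 for Syt16, and under median centring the Syt16 ratio was -0.0019.

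The other synaptotagmin and Doc2 genes did not pass the test. Syt1, the main calcium sensor for synchronous release in cortical neurons, had ratios of -0.24, 0.14 and 0.18, a mean of 0.03 ± 0.23 on a probe of mean log2 intensity over 15. The arrays thus disagreed in sign for Syt1, with array 1 the one below 0. With median centring Syt1 was called brighter in Cy5. Syt7, the sensor of slow and asynchronous release, had 0.06 ± 0.04. Syt3 had 0.13 ± 0.18, Syt10, a sensor of growth factor secretion, 0.20 ± 0.05, Syt11 -0.10 ± 0.18, Syt12 0.02 ± 0.15 and Syt17 -0.12 ± 0.16. Doc2a, a sensor of spontaneous and asynchronous release, was above 0 on every array with 0.57, 0.10 and 0.28, a mean of 0.32 ± 0.24 (limma adjusted p = 0.0635). It passed only without array 2 (0.43, adjusted p = 0.0144) or with median centring (0.41, adjusted p = 0.0204). Its relative Doc2b had 0.07 ± 0.15.

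**Figure D2:**
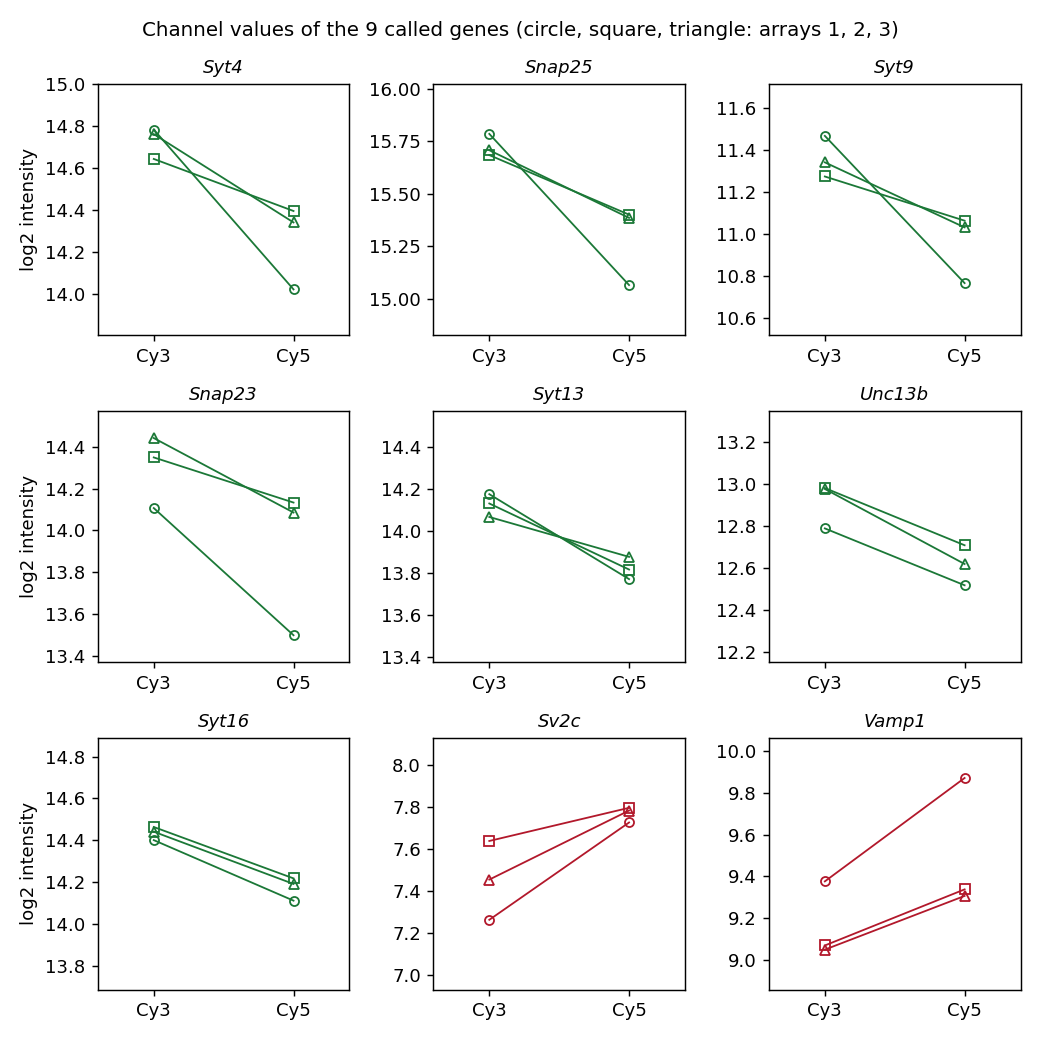
Log2 intensity (vertical axis, each panel spanning 1.2 units) in Cy3 and Cy5 after loess and Aquantile for the 9 called genes; lines join the dyes of 1 array. Cy3 and Cy5 values overlap for Snap23 and Vamp1 and for no other of the 9, which were called from these same arrays. Over all genes, 36.1% have dyes that do not overlap. With median centring no member is called brighter in Cy3.

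Among the SNARE genes, both Snap25 and its close relative Snap23 were brighter in Cy3, and the vesicle SNARE Vamp1 in Cy5, 3 of 11 tested. The shares were 18.2% in Cy3 and 9.09% in Cy5, against 9.17% and 7.98% of all genes. Without array 1 the same 3 genes were called, and with median centring Vamp1 alone. Snap25, the neuronal target-membrane SNARE of fast release, had log2 intensities of 15.79, 15.68 and 15.71 in Cy3 and 15.06, 15.40 and 15.39 in Cy5. All Cy3 values lay above the Cy5 values, as for 20.1% of all genes, with the lowest Cy5 value on array 1. The ratio was -0.44 ± 0.24 (SD, n = 3 arrays, limma adjusted p = 0.0299). It was -0.30 without array 1 and -0.04 with median centring. The probe has a mean log2 intensity over 15, a range in which 18.5% of genes were called brighter in Cy5 and 4.53% brighter in Cy3. Snap23, the widely expressed form, had 14.11, 14.35 and 14.44 in Cy3 and 13.50, 14.13 and 14.09 in Cy5. Its dyes overlapped across arrays, because both dyes were dimmest on array 1, though Cy3 was the brighter on each array. The ratio was -0.39 ± 0.20 (adjusted p = 0.0312), and the call was lost without array 3 (-0.41, adjusted p = 0.0682). Its 2 other probes had 0.06 and -0.09, so the call rests on the brightest of 3 probes, and over the median of the 3 the ratio was -0.09 (adjusted p = 0.391).

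Vamp1, the synaptobrevin of spinal cord, brainstem and some interneurons, had log2 intensities of 9.38, 9.07 and 9.05 in Cy3 and 9.87, 9.34 and 9.31 in Cy5. Array 1 was the brightest in both dyes, so the dyes overlapped across arrays, while Cy5 was higher within each. The ratio was 0.34 ± 0.13 (SD, n = 3 arrays, adjusted p = 0.0313), and the call was lost without array 3 (0.38, adjusted p = 0.0681). Vamp2, the main synaptobrevin of forebrain synapses, had -0.24, -0.16 and -0.06, a mean of -0.15 ± 0.09 (adjusted p = 0.160). Vamp3, of recycling endosomes, had -0.17 ± 0.11, Vamp4 0.08 ± 0.03 and Vamp7, a tetanus-insensitive form of axon growth and spontaneous release, -0.20 ± 0.06 (limma adjusted p = 0.0870). The second Vamp4 probe had -0.19 ± 0.06, so the sign for Vamp4 depends on the probe. The syntaxins, which anchor the complex in the plasma membrane, did not pass. Stx1a of neurons had 0.11 ± 0.09, Stx3 -0.09 ± 0.16 and Stx4a 0.07 ± 0.03. The 2 other Stx3 probes had 0.02 and 0.06, so the sign for Stx3 depends on the probe. Snap29, a SNARE of internal membranes and autophagosomes, had -0.17 ± 0.09 (adjusted p = 0.136). A second Snap29 probe had a mean of 0.01. The median over the 11 SNARE genes was -0.15, and -0.03 with median centring, where Vamp2 was at 0.09.

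Neither complexin that was tested passed (none at an unadjusted p under 0.05, against 8551 of all 23232 genes). Cplx1, the complexin of inhibitory and later-maturing synapses, had 0.20, -0.04 and 0.12, a mean of 0.09 ± 0.12 (SD, n = 3 arrays, limma adjusted p = 0.412). Cplx2, of excitatory forebrain synapses, had -0.14, 0.32 and 0.09 on its brightest probe, a mean of 0.09 ± 0.23 (adjusted p = 0.521). All 5 Cplx2 probes have a mean log2 intensity over 15, and the other 4 had means of -0.26, -0.24, -0.21 and -0.03, so the sign for Cplx2 depends on the probe. With median centring both complexins were called brighter in Cy5 (0.32 and 0.67), and without array 1 neither was called.

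Of 7 vesicle membrane and synapsin genes, Sv2c alone was called (14.3%, against 17.1% of all genes). Without array 1 none of the 7 was called, and with median centring Sv2c and Syn2 were, both brighter in Cy5. Sv2c, a vesicle glycoprotein of the basal ganglia and other subcortical regions and one of the vesicle proteins to which botulinum toxin A binds, had dim log2 intensities of 7.26, 7.64 and 7.45 in Cy3 and 7.73, 7.80 and 7.78 in Cy5. All Cy5 values lay above the Cy3 values, as for 16% of all genes, and the Cy3 values varied more. The ratio was 0.32 ± 0.15 (SD, n = 3 arrays, limma adjusted p = 0.0405). It fell to 0.24 without array 1 (adjusted p = 0.0750) and was 0.31 without array 3 (adjusted p = 0.127), while the second probe tested had 0.01. The processed signals gave 0.63 (adjusted p = 0.0505), and the fit without background correction 0.31 (adjusted p = 0.0540). Striatal genes, listed above, were also brighter in Cy5, and their part in the Sv2c value was not tested.

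The general vesicle proteins did not pass. Sv2a, the form present at most synapses, had -0.14 ± 0.15 (SD, n = 3 arrays), and Sv2b, enriched at excitatory synapses, -0.09 ± 0.10. Synaptophysin (Syp), the abundant vesicle protein used as a stain for synapses, had 0.08, -0.12 and 0.06, a mean of 0.0045 ± 0.11. The synapsins tie vesicles to the reserve pool: Syn1 had -0.11 ± 0.04, Syn2 0.07 ± 0.15 and Syn3, the early developmental form, 0.21 ± 0.16 (limma adjusted p = 0.118). A Syn3 probe named only through the authors' table, which lists it as an unclassifiable cerebellar clone, had -0.60, -0.29 and -0.37 and was called brighter in Cy3 in the fit over probes (-0.42 ± 0.16, adjusted p = 0.0212). Whether that clone is Syn3 transcript is not known here. A further Syn3 probe, also named through the authors' table, had 0.12 ± 0.10. Another, named by RefSeq accession but too dim to be tested, had -0.28, -0.30 and -0.20.

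None of the 4 Rab3 genes, small GTPases that bind RIM on the vesicle surface, passed. At an unadjusted p under 0.05 there was 1 of the 4, against 8551 of all 23232 genes. Rab3a, the most abundant at central synapses, had 0.06 ± 0.05 (SD, n = 3 arrays) on a probe of mean log2 intensity over 15, Rab3b 0.01 ± 0.12 and Rab3d, better known from secretory glands, 0.12 ± 0.02. Rab3c had -0.68, -0.14 and -0.14, a mean of -0.32 ± 0.31 (limma adjusted p = 0.0962). Its size thus came mostly from array 1, although all 3 of its probes lay below 0, at -0.32, -0.36 and -0.15. It was called only without array 2 (-0.41, adjusted p = 0.0262). No Rab3 gene was called without array 1, and Rab3a was with median centring, in Cy5.

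Of 8 active zone and priming genes, the Munc13 gene Unc13b was called (12.5%, against 17.1% of all genes). Unc13b (Munc13-2), a priming factor of a subset of forebrain synapses, had log2 intensities of 12.79, 12.98 and 12.98 in Cy3 and 12.52, 12.71 and 12.62 in Cy5. No Cy5 value reached a Cy3 value, as for 20.1% of all genes. The ratios were -0.27, -0.27 and -0.36, a mean of -0.30 ± 0.05 (SD, n = 3 arrays, limma adjusted p = 0.0303), and array 1 did not stand out. The call was lost without array 2 (-0.31, adjusted p = 0.0687) and without array 3 (-0.27, adjusted p = 0.145). Its relatives did not pass. Unc13a (Munc13-1), needed at most excitatory synapses, had 0.09 ± 0.12, with a second probe at -0.09. Unc13c (Munc13-3), mainly cerebellar, had -0.16, 0.29 and 0.47, a mean of 0.20 ± 0.32 (adjusted p = 0.259), and was called without array 1 (0.38, adjusted p = 0.0299), as was Unc13b.

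The scaffolds did not pass. Bassoon (Bsn) had 0.33, 0.08 and 0.07, a mean of 0.16 ± 0.15 (SD, n = 3 arrays, limma adjusted p = 0.188). With median centring Bassoon was called brighter in Cy5 (0.26, adjusted p = 0.0486). Piccolo (Pclo), its large relative, had -0.28, -0.20 and -0.07 on the brightest probe, a mean of -0.19 ± 0.11 (adjusted p = 0.116). The 3 other Pclo probes had -0.37, -0.32 and 0.08, and the first of these was called in the fit over probes (adjusted p = 0.0252). The RIM genes, whose products link Rab3 to calcium channels and Munc13, had 0.18 ± 0.14 (Rims1), -0.04 ± 0.30 (Rims2) and -0.15 ± 0.02 (Rims3). The second Rims3 probe had 0.30, so the 2 probes of Rims3 differ in sign.

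Probes of a gene often disagreed at this size of difference. Of 17 members with at least 2 tested probes, 10 had probes on both sides of 0. Over the 71 tested member probes, 9 were brighter in Cy3 and 2 in Cy5 in a fit over all 32983 probes, of which 9.39% and 7.49% were called in these directions (16.9% in either). The 2 probes added to the genes above are those of Syn3 and Pclo.

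Array 1 carried the largest ratios. Among the 45 members, 35 (77.8%) were farthest from 0 on array 1, against 58.1% of all genes, and the median size of a member's log2 ratio was 0.24 on array 1, 0.12 on array 2 and 0.13 on array 3. Over all genes these sizes were 0.22, 0.13 and 0.13. The members' ratios correlated between arrays at Pearson r = 0.56 (arrays 1 and 2), 0.75 (1 and 3) and 0.72 (2 and 3), across 45 genes that share the arrays, the dyes and the normalization. Over all 23232 genes these were 0.57, 0.70 and 0.59. In channel values, 19 members (42.2%) had dyes that did not overlap, against 36.1% of all genes. Of these, 12 members (26.7%) had all Cy3 values above all Cy5 values, against 20.1% of all genes, and 7 (15.6%) the reverse, against 16%.

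**Figure D3:**
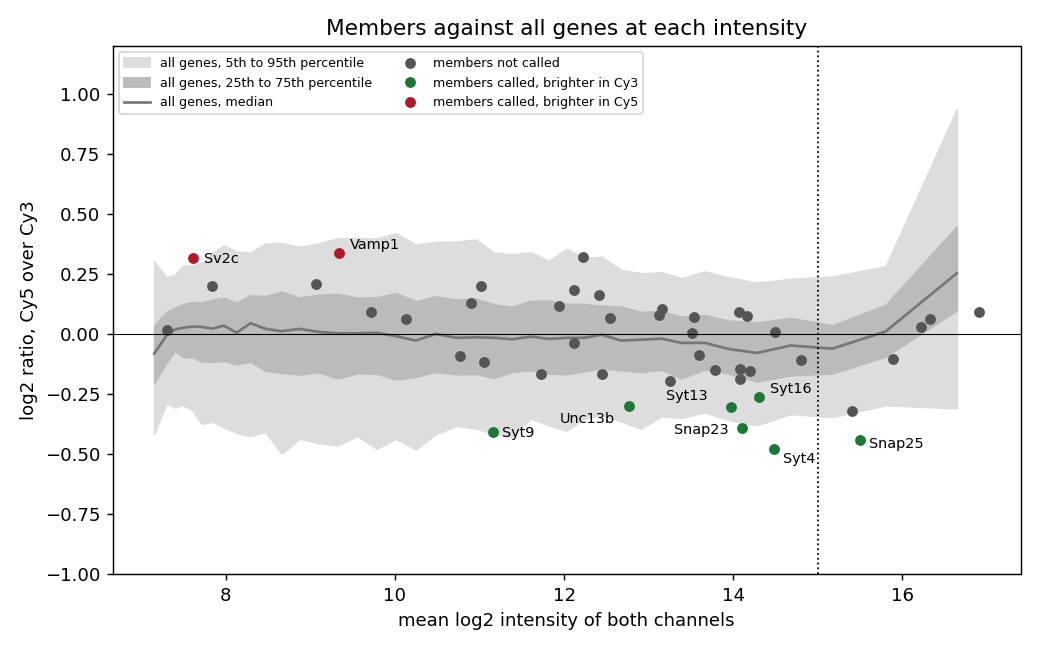
Log2 ratio of Cy5 over Cy3 (vertical axis) against mean log2 intensity of both dyes (horizontal axis) for the 45 tested members (points), with the 5th to 95th and 25th to 75th percentiles and the median of all genes in 40 intensity bins (bands, line) and a dotted line at 15. Syt4 (-0.48), Snap25 (-0.44) and Snap23 (-0.39) lie below the lower edge of the outer band, and Sv2c (0.32) above its upper edge, which reaches 0.94 in the brightest bin; with median centring no member is called brighter in Cy3.

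Members were brighter than most genes, with a median mean log2 intensity of 13.2 against 10.6 over all genes, and 6 members lay over 15. Of those 6, Snap25 was the 1 called. Within the members' middle range of intensity (11.2 to 14.2), 9.31% of all genes were called brighter in Cy3 and 5.89% brighter in Cy5, and their median ratio was -0.02.

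Other genes of vesicle release and recycling, which are not among the 48, were read from the same fit. Of 27 partners of the release machinery, 4 had a call towards Cy5 and 2 towards Cy3 (22.2%, against 17.1% of all genes). Leaving out array 1 gave 3 and 2 calls, median centring 6 and 0. Cplx3, the complexin of subplate neurons and retinal ribbon synapses, had 2.66, 2.35 and 2.28, a mean of 2.43 ± 0.20 (SD, n = 3 arrays), far outside the range of the members. Syt6, a synaptotagmin of deep cortical layers, had 0.86 ± 0.46 and Sncb (beta-synuclein) 0.37 ± 0.05, while the active zone kinase relative Cask had -0.35 ± 0.07 and Cadps, a priming factor of dense-core vesicles, -0.26 ± 0.06. The limma adjusted p of these 4 lay between 0.0167 and 0.0459. The SNARE disassembly factors Nsf (-0.05) and Napa (-0.03) did not pass.

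Of 15 vesicle proteins and transmitter transporters, 4 had a call towards Cy5 and 2 towards Cy3 (26.7% and 13.3%, against 7.98% and 9.17% of all genes). Without array 1 these were 3 and 2, and with median centring 7 and 1, the 1 being Slc17a6. The vesicular glutamate transporters split. Slc17a6 (VGLUT2), carried by thalamic and immature cortical neurons, had -0.96, -0.82 and -0.72, a mean of -0.83 ± 0.12 (SD, n = 3 arrays). Slc17a7 (VGLUT1), the mature cortical form, had 0.36 ± 0.15 and Slc17a8 (VGLUT3) 0.38 ± 0.18. The GABA transporter Slc32a1 had 0.33 ± 0.21 (limma adjusted p = 0.0489), the acetylcholine transporter Slc18a3 0.50 ± 0.36 and the vesicle protein Scamp1 -0.29 ± 0.06. Of the 6 thalamus markers 3 were brighter in Cy3, Slc17a6 among them, and 1 in Cy5. Of 18 genes of vesicle endocytosis, 2 were called (11.1%, against 17.1% of all genes), both brighter in Cy3: the adaptor subunit Ap2b1 (-0.28 ± 0.02) and the scaffold Itsn2 (-0.26 ± 0.02). Both were called without array 1 and neither with median centring, which gave 5 other calls, all in Cy5. Dnm3 (-0.52 ± 0.48, adjusted p = 0.0640) and Ap2a1 (0.22 ± 0.10, adjusted p = 0.0755) came next.

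**Figure D4:**
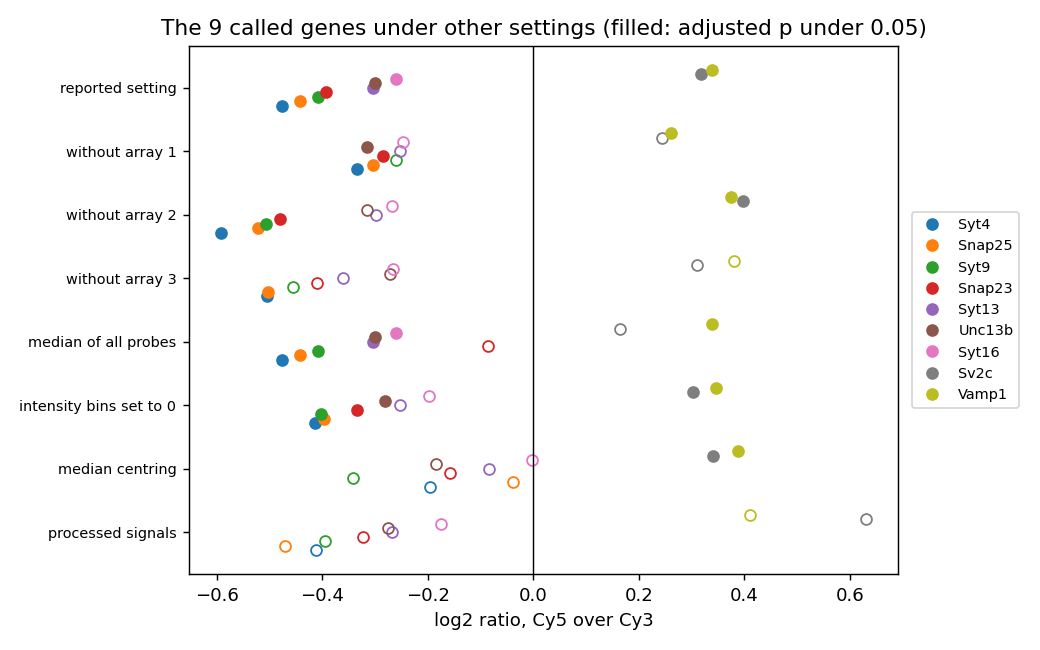
Log2 ratio of Cy5 over Cy3 (horizontal axis) of the 9 called genes under the reported setting and 7 others (rows); filled points have a limma adjusted p under 0.05. Snap25 and Syt4 stay filled without any 1 array, and no gene is filled with the processed signals; with median centring the 7 genes brighter in Cy3 move towards 0 and lose their calls.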

How the data were processed

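RNA from dorsal cortex (350 ng, amplified in a single round) was hybridised to 3 arrays, per the labels' protocols. The deposited files hold spot intensity in both dyes from Agilent Feature Extraction 10.7.3.1 (grid annotated on mm9), per the file headers. The log10 ratio that was deposited beside them was computed by that software from its processed signals, per the file headers. The authors' deposited table gives log2 fold changes, p-values and scores from limma, per the submitters' processing notes, with its normalization and direction not given in the sources used here. The smallest adjusted p in it is 0.159.

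Median spot and background intensities were corrected with normexp (offset 50) and normalized by loess per array, with control spots at weight 0, in limma 3.58.1 under R 4.3.3. Between 250 and 272 spots per array flagged as outliers were left out, and no spot was saturated. The spots of a probe were averaged, the brightest probe stood for a gene, and the log2 ratio was tested against 0 (moderated variances, two-sided, Benjamini-Hochberg over 23232 genes, threshold 0.05). The fit was tested on simulated data. Intensities printed per dye are after loess and Aquantile. Of the 76 member probes, 68 were named by RefSeq accession and 8 through the authors' table, which stops at a p-value of 0.458, so that naming depends in part on the outcome. The text names all members, and of each partner list the called genes or up to 4 with the smallest adjusted p, plus Nsf and Napa, chosen after their values were seen. Some partner genes are not reported here by name. Members and lists were chosen with earlier results of these data known. Alternatives were other background corrections, scalings, filters, probe summaries, a variance trend, leaving out each array, and the authors' table.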

Additional observations from a re-analysis of the deposited data

How the results depend on the processing

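The 9 called members were fitted under 14 other settings (13 for Snap25, which drops out with bright probes), and none of the 9 ratios changed sign. The member calls were 9, with the same 9 genes, under a normexp offset of 16, no filter on dim probes, both dyes required above background, an intensity trend and only non-uniform spots left out. With the processed signals no member was called (0 in Cy5, 0 in Cy3), 3 partners were (2 in Cy5, 1 in Cy3) and 1108 genes were. At an unadjusted limma p under 0.05 there were 11 members, 16 partners and 7697 genes. In the authors' deposited table, sign turned, 0 members, 0 partners and 0 genes had an adjusted p under 0.05, and 10, 15 and 6768 an unadjusted one. Median centring gave 9 members in Cy5 and 0 in Cy3, a member median of 0.17, and 18 partners in Cy5 and 1 in Cy3. It called 83.4% of all called genes brighter in Cy5, against 46.5% after loess, and placed the median of all genes at 0.09. Without background correction, and with the median of all probes, 1 member was brighter in Cy5 in place of 2. With intensity bins centred on 0, 3 partners were brighter in Cy3, and Syt13 and Syt16 lost their calls. Leaving out 1 array gave 2 to 8 member calls, 0 to 3 in Cy5 and 2 to 5 in Cy3, the fewest without array 3. It gave 4 to 12 partner calls, 2 to 7 in Cy5 and 2 to 6 in Cy3, and 1900 to 3775 calls over all genes. The cause of these shifts was not tested. The reported fit is itself paired, since each array sets the 2 pups of a pair against each other, and no further pairing was added. With 3 arrays, differences under about 1.2-fold were not called for any member, and Syt2 and Cplx4 were too dim to test.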
